A study of Mus musculus with 12 samples.

Results

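Mr1, Cd1d1, H2-M3 and H2-T23 encode nonclassical MHC class I heavy chains, and they were the 4 members of this class chosen by gene symbol from the 750 genes measured in mammary tumors treated with a STING agonist, a PARP inhibitor or both. The tumors belong to a model of triple negative breast cancer labelled K14-Cre;Brcaf/fTrp53f/f, in which a keratin 14 promoter drives Cre so that epithelial cells lose Brca1 and p53. Chunks of such tumors had been placed in the fat pad of FVB/129P2 female mice, the syngeneic strain, whose own cells can enter the grafts. All 12 tumors analysed, 3 in each of 4 groups, therefore carried the same deletions, also those of the vehicle group. Vehicle mice received DMSO in saline intraperitoneally and saline in the tumor, ADU-S100 mice (a cyclic dinucleotide that activates STING) received 50 μg in 40 μl in the tumor on the first day with the DMSO injections, olaparib mice (a PARP inhibitor) received 50 mg/kg intraperitoneally each day with saline in the tumor, and combination mice received both drugs. Tumors were taken at day 3. The ages of the mice and the origin of the single tumor chunks were not given in the sources used here.

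The choice of the members was not blind to the values. They were selected with earlier results of these tumors known, and Mr1 is one of the genes that the study itself picked on these tumors, so the members' differences are descriptions with their errors and without tests. All 4 members passed the filter on low values (at least 20 normalized counts in at least 3 tumors), as did 689 of the 750 genes.

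Nonclassical class I molecules share the fold of the classical molecules H2-K and H2-D and most of them pair with the light chain beta-2 microglobulin, but they vary little between individuals and display restricted sets of ligands. MR1 presents small metabolites of vitamin B2 synthesis to mucosal-associated invariant T cells. CD1d presents lipids to natural killer T cells. H2-M3 binds peptides that begin with N-formyl methionine, as bacteria and mitochondria make them, and Qa-1, the product of H2-T23, displays leader peptides of other class I chains to the CD94/NKG2 receptors of NK cells and T cells. Classical class I genes and several nonclassical ones are switched on by interferons and by the transactivator NLRC5, which acts at conserved upstream boxes.

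RNA abundance was read with nCounter probes, which are counted one by one without amplification, and the authors deposited counts scaled to housekeeping genes (normalized counts). The counts before scaling could be recovered, because nearly all values of a tumor (at least 99.87%) are whole multiples of one step, the value of 1 count. That value was between 0.589 and 2.85 in 11 tumors and 10.5 in olaparib tumor 1517, which had the lowest total (106206 recovered counts, while vehicle tumor 1269 had the highest, 1519471). The members were read from at least 29 recovered counts in every tumor. The 3 of 6 listed epithelial markers that were measured summed to between 10802 and 22177 normalized counts, and the fewest recovered counts of any of them were 58, so epithelial RNA was present in every tumor. Probes differ in efficiency, so that a value relative to another gene was compared only between tumors and does not give the abundance of one gene against the other. A change in a bulk tumor can come from fewer cells of a type or from less RNA per cell, which cannot be told apart.

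The upstream sequences of 3 members are shown with that of the classical gene H2-K1, since the comparisons below set the members against the classical genes. They are the 250 bases before the start of transcription in RefSeq (GRCm38.p6), and capitals mark matches on either strand to any of 5 short motifs, namely TTTCACTT (the interferon consensus core of classical class I genes), TTTCNNTTT (a repeat bound by interferon regulatory factors), GATTCCCC (the kappa B core of class I genes), TGACGC (the core of the X2 box) and CCAAT. The windows were Mr1 at chr1:155146815-155147064 (minus strand), H2-M3 at chr17:37269984-37270233 (plus strand), H2-T23 at chr17:36032702-36032951 (minus strand) and the first of 2 entries of H2-K1 at chr17:34000348-34000597 (minus strand). Cd1d1 had no entry.
Mr1: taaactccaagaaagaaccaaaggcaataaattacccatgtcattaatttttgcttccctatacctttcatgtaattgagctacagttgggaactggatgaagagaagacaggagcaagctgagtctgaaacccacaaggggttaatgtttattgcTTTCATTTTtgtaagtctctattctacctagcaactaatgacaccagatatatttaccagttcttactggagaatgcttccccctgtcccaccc
H2-M3: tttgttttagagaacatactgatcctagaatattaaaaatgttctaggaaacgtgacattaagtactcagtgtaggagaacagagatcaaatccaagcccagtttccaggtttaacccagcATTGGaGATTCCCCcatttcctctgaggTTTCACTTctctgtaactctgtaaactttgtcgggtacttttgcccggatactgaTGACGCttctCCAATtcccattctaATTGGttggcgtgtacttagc
H2-T23: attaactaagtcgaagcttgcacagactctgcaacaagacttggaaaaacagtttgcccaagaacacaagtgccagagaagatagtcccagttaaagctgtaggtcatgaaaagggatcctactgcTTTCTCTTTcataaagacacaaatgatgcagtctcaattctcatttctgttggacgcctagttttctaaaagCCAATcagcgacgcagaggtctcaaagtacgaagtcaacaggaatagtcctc
H2-K1: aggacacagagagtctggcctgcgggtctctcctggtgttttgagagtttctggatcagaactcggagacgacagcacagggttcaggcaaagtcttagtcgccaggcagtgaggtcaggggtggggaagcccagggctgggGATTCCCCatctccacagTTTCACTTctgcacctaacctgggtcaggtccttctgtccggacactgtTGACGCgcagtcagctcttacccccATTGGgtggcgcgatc

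H2-M3 and H2-K1 held the same 4 kinds of match, in the same order from the kappa B core through the interferon consensus core and the X2 core to a CCAAT box close to the start, and H2-D1 held them too. Among 32851 windows of the same length, 0.752% held GATTCCCC, 1.36% held TTTCACTT, 6.12% held TGACGC and 33.8% held CCAAT or its complement. H2-T23 held none of the first 3 motifs and had TTTCTCTTT 124 to 116 bases before the start and a CCAAT box at 52 to 48. The Mr1 window held a single match, TTTCATTTT at 94 to 86, and 9.37% of all windows held that motif. The motifs were picked with the sequences in view and did not overlap each other in these 4 windows. A match describes letters only.

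Mr1 was the only member whose 3 combination tumors all lay above the other 9. The combination tumors 1251, 1270 and 1539 had 1342, 1699 and 926 normalized counts. The vehicle tumors 1269, 1529 and 1536 had 882, 618 and 405. The ADU-S100 tumors 1506, 1512 and 1513 had 530, 385 and 678. The olaparib tumors 1510, 1517 and 1521 had 534, 493 and 720. The 3 groups other than the combination overlapped fully in Mr1, with means of 635 ± 239 (vehicle), 531 ± 146 (ADU-S100) and 582 ± 121 (olaparib) against 1322 ± 387 in the combination (SD, n = 3 each). The gap was narrow at its closest point. Combination tumor 1539 exceeded vehicle tumor 1269 by 43.7 normalized counts, or 1.05-fold, and their 95% Poisson intervals, which cover counting error only, overlapped (872 to 981 and 835 to 931).

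**Figure D1:**
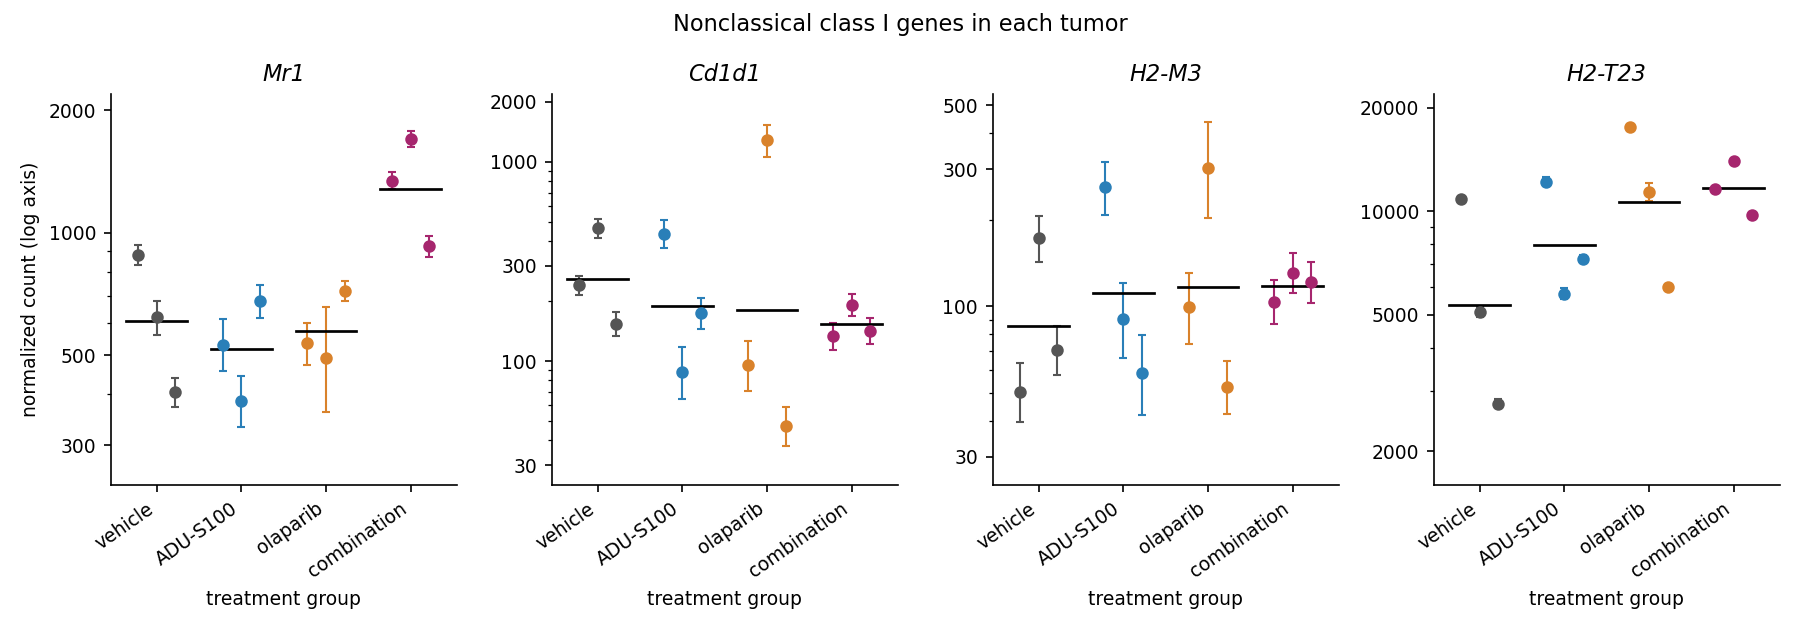
Normalized counts (log axis) of the 4 members in each of the 12 tumors by treatment group. Points are tumors in the order of their numbers, whiskers are 95% Poisson intervals of the recovered counts, and black lines are group means on the log2 scale; the 3 combination tumors lie above all others in Mr1, from 926 to 1699, and within the range of the other tumors in Cd1d1, H2-M3 and H2-T23.

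On the log2(normalized count + 1) scale, Mr1 was higher in the combination than in vehicle by 1.08 (SE 0.42), which is 2.12-fold, than in ADU-S100 by 1.31 (SE 0.42) and than in olaparib by 1.16 (SE 0.42). The drugs alone differed from vehicle by -0.23 for ADU-S100 and -0.07 for olaparib (SE 0.42 each). These values depended on the scaling. For ADU-S100 the difference was -0.72 with every tumor scaled to the same median, -0.62 with quantile normalization and -0.79 with edgeR and TMM, and for olaparib it was -0.45, -0.45 and -0.44. The interaction, by how much more ADU-S100 changed the gene on top of olaparib than on its own, was 1.38 (SE 0.60), and it was 0.06 relative to H2-K1 and H2-D1 and 0.62 when the number series of the tumors was a block. The 3 combination comparisons share the combination tumors, and those with vehicle share the vehicle tumors, so that they are not independent of each other. Genes whose 3 combination tumors all exceeded all 3 of another group were frequent on the panel, namely 18.4% of the 689 genes when compared with vehicle, 10.4% with ADU-S100 and 11% with olaparib, and 3.19% (22 genes, Mr1 among them) exceeded all 9. Without olaparib tumor 1517, the share above the other 8 was 3.77%. Over all 689 genes the median difference of the combination was 0.21 from vehicle, -0.22 from ADU-S100 and -0.15 from olaparib. The median was 0.44 for ADU-S100 and 0.45 for olaparib against vehicle, and -0.55 for the interaction. Limma with Benjamini-Hochberg adjustment over all 689 genes called 0% of genes at 0.05 in each of these comparisons, in each drug alone against vehicle and in the interaction, and 53, 63, 50, 33, 50 and 75 genes had an unadjusted p below 0.05, with 13 of the last above 0 and 62 below. EdgeR's quasi-likelihood test on the recovered counts called 0 genes as well.

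The tumor numbers begin with 12 in 1 vehicle and 2 combination tumors and with 15 in the others, and no source used here explains the numbering. Among the former, Mr1 was 1342 and 1699 in the combination against 882 in vehicle. Among the latter, the single combination tumor had 926 against at most 720 in the other 8. With the number series as a block, the difference from ADU-S100 was 0.80 and that from olaparib 0.65.

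The combination differences of Mr1 were close to those of the classical class I genes. H2-K1 and H2-D1, the heavy chains that present peptides to CD8 T cells, were at 39671 ± 5700 and 39226 ± 5744 normalized counts in the combination, at 22261 ± 20868 and 22389 ± 15222 in vehicle, at 14358 ± 4398 and 19707 ± 7121 in ADU-S100, and at 16294 ± 7071 and 19492 ± 424 in olaparib (SD, n = 3 each). Vehicle tumor 1269 had 46028 for H2-K1, close to the highest combination tumor, and it also had the highest Mr1 outside the combination. The log2 differences of H2-K1 were 1.26 from vehicle, 1.50 from ADU-S100 and 1.39 from olaparib (limma adjusted p = 0.652, 0.492 and 0.594), and those of H2-D1 were 1.02, 1.04 and 0.999 (adjusted p = 0.652, 0.531 and 0.594). Within a tumor the scaling factor cancels from the difference between Mr1 and the mean of H2-K1 and H2-D1. That difference was -4.87 ± 0.64 in vehicle, -4.97 ± 0.54 in ADU-S100, -4.90 ± 0.25 in olaparib and -4.93 ± 0.29 in the combination on the log2 scale (SD, n = 3). The combination thus differed by -0.06, 0.04 and -0.04 from the 3 other groups, each far less than the spread between tumors. Its lowest value was in vehicle tumor 1269, where classical class I was high for its Mr1. The SD of log2 Mr1 itself was 0.56 in vehicle, 0.41 in ADU-S100, 0.29 in olaparib and 0.44 in the combination. The difference from the classical genes thus varied more than Mr1 within vehicle and ADU-S100, and less within olaparib and the combination.

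**Figure D2:**
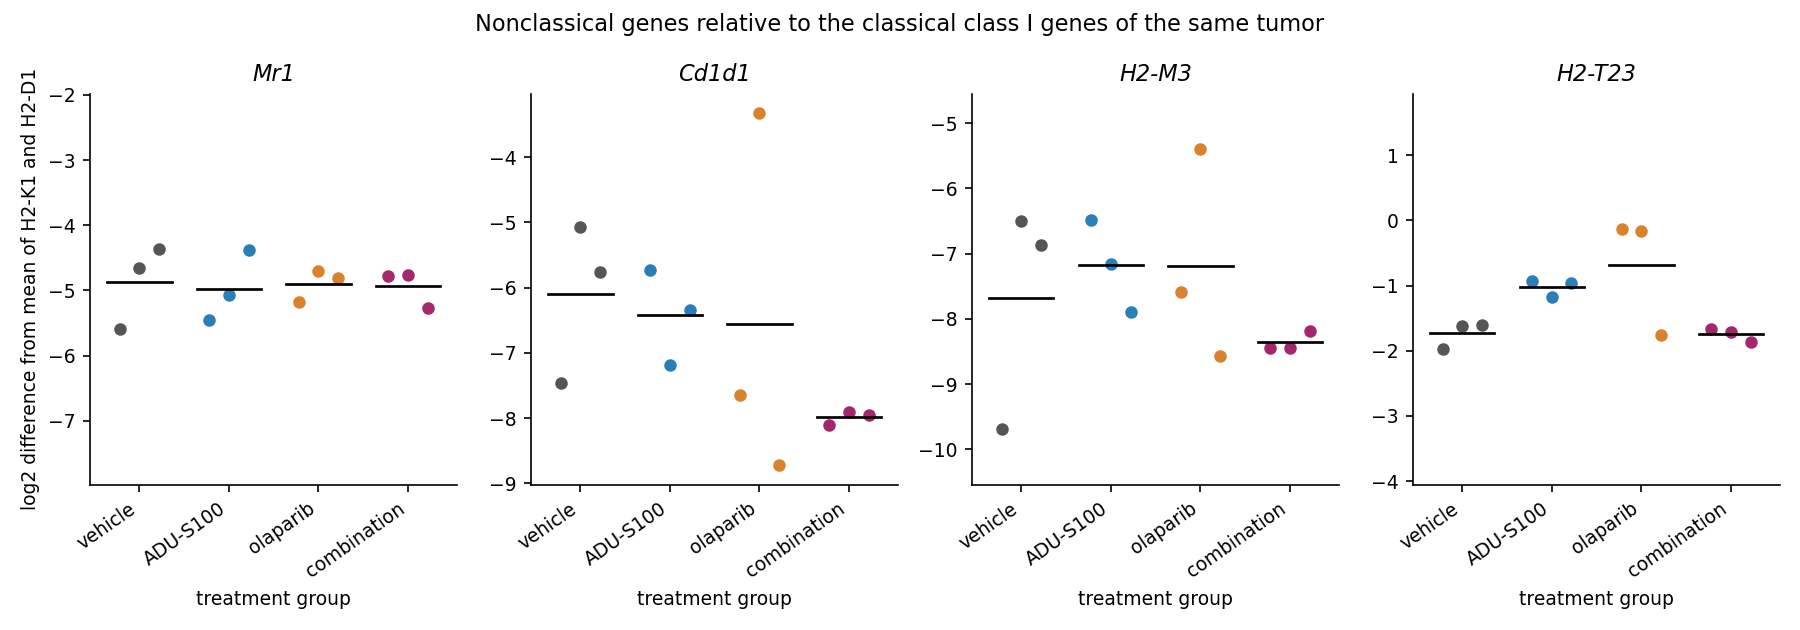
Log2 difference of each member from the mean of H2-K1 and H2-D1 in the same tumor, by treatment group, with 1 point per tumor, black lines at group means and the same span on each vertical axis. The Mr1 means lie between -4.97 and -4.87 in all groups, while the 3 ADU-S100 tumors exceed the vehicle and the combination tumors in H2-T23.

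The genes most like Mr1 over the 12 tumors were Xbp1, a transcription factor of the unfolded protein response (Pearson r = 0.91, Spearman rho = 0.94), Lamp2, a lysosomal membrane protein (r = 0.89, rho = 0.92), and Tnfsf10, the death ligand TRAIL (r = 0.87, rho = 0.80). These genes were picked for their high r among the 688 other genes kept, so no p is given. Without the 2 tumors farthest from the Mr1 median, combination tumors 1251 and 1270, r was 0.90, 0.93 and 0.77. Xbp1 was at 16165 ± 2759 normalized counts in the combination and at 11269 ± 5591 in vehicle, and Lamp2 at 8620 ± 1190 and 5813 ± 2758. Across tumors Mr1 also went with the summed epithelial markers (r = 0.70, rho = 0.69, n = 12) and against the value of 1 count (r = -0.48, rho = -0.54, and r = -0.81 with every tumor scaled to the same median). The combination tumors had 1339258 to 1491854 recovered counts, against 632152 to 1519471 in vehicle, 372390 to 683982 in ADU-S100 and 106206 to 1392128 in olaparib, and the 5 tumors of highest Mr1 (1270, 1251, 1539, 1269 and 1521) were the 5 deepest. The part of depth in the Mr1 values was not tested beyond the fit with the log2 factor (the log2 of the value of 1 count) as a covariate, where the combination differed by 1.07 from vehicle, 1.15 from ADU-S100 and 0.98 from olaparib. The epithelial sums were 10802 to 21499 in vehicle, 11861 to 19063 in ADU-S100, 12324 to 22177 in olaparib and 17779 to 20694 in the combination, and the epithelial part in the Mr1 values was not tested.

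H2-T23 had the largest combination minus vehicle difference of the members in the main fit (1.12 against 1.08 for Mr1), but its groups overlapped. Mr1 had the larger difference with quantile normalization (0.86 against 0.71), with edgeR and with the tumor number series as a block. The H2-T23 values of combination tumors 1251, 1270 and 1539 were 11602, 13973 and 9737 normalized counts. The vehicle tumors 1269, 1529 and 1536 had 10881, 5082 and 2754. The ADU-S100 tumors 1506, 1512 and 1513 had 12180, 5743 and 7261. The olaparib tumors 1510, 1517 and 1521 had 17519, 11391 and 5999, so that the highest of all tumors was an olaparib tumor. Vehicle tumor 1269 alone brought the vehicle range into that of the combination. The log2 difference was 1.12 from vehicle (SE 0.57), 0.55 from ADU-S100 and 0.13 from olaparib, and the drugs alone differed from vehicle by 0.58 (ADU-S100) and 0.99 (olaparib), with an SE of 0.57 each. The median of all genes in those last 2 comparisons was 0.44 and 0.45, and with edgeR and TMM scaling the ADU-S100 difference turned to -0.24. The combination minus vehicle difference was 0.65 without vehicle tumor 1536, 1.64 without tumor 1269 and 0.47 with edgeR and TMM. With the tumor number series as a block, the difference of the combination from ADU-S100 turned to -0.10 and that from olaparib to -0.51. All 3 tumors were higher than all 3 vehicle tumors in 13.9% of genes for ADU-S100 and in 3.77% for olaparib, and lower in 1.02% each, and none of the 4 members was among them.

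Relative to H2-K1 and H2-D1 of the same tumor, H2-T23 took another order than Mr1. Its log2 difference from their mean was -1.97, -1.62 and -1.60 in vehicle tumors 1269, 1529 and 1536. It was -0.93, -1.18 and -0.97 in ADU-S100 tumors 1506, 1512 and 1513. It was -0.14, -0.17 and -1.76 in olaparib tumors 1510, 1517 and 1521. It was -1.66, -1.72 and -1.87 in combination tumors 1251, 1270 and 1539. All ADU-S100 tumors thus exceeded all vehicle tumors, as 7.13% of 687 genes did on this relative scale, and all combination tumors lay below all ADU-S100 tumors, as 75.8% of genes did.

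The genes most like H2-T23 were Bst2, which tethers budding virus (r = 0.91, rho = 0.85), Xaf1, an antagonist of an apoptosis inhibitor (r = 0.91, rho = 0.91), and Usp18, which removes ISG15 from proteins (r = 0.91, rho = 0.84), all known as interferon-stimulated genes. Without vehicle tumors 1529 and 1536, the farthest from the H2-T23 median, r was 0.79, 0.84 and 0.76. Bst2 had means of 2171, 3316, 4162 and 5137 normalized counts in vehicle, ADU-S100, olaparib and the combination. H2-T23 went against the summed stromal markers (r = -0.70, rho = -0.74), which ran from 4300 in olaparib tumor 1510, the tumor of highest H2-T23, to 85013 in vehicle tumor 1529. The 5 stromal markers were all measured and none was at 0. H2-T23 went with the summed T cell markers (r = 0.73, rho = 0.68, and r = 0.76 without tumor 1517), and its r was 0.61 with the dendritic cell sum and 0.62 with the epithelial sum. Its r was 0.13 with the leukocyte sum and -0.30 with the macrophage sum. The sums of the T cell markers, 6 of 6 measured and none at 0, were 84.5 to 169 in vehicle, 143 to 342 in ADU-S100, 120 to 545 in olaparib and 283 to 458 in the combination. The combination tumors thus lay above all vehicle tumors, as 18.4% of single genes did. So did their dendritic cell sums (259 to 403 against 129 to 247 in vehicle). The part of these cell types in the H2-T23 values was not tested.

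The CD94/NKG2 receptors that bind Qa-1 were low in counts. Klrd1 (CD94) had means of 39.3 ± 26.5 in vehicle, 96.2 ± 65.7 in ADU-S100, 129 ± 170 in olaparib and 66.7 ± 25.8 normalized counts in the combination, and Klrc1 (NKG2A) 18.6 ± 12.7, 50.7 ± 12.3, 30.6 ± 28.4 and 19.3 ± 3.94 (SD, n = 3 each). The combination minus vehicle differences on the log2 scale were 0.87 for Klrd1 and 0.21 for Klrc1 (limma adjusted p = 0.962 and 0.989). Klrk1, which encodes NKG2D and had the smallest p of the receptor list, was at 87.5, 94.8 and 84.4 in the combination tumors and at 19.8, 22.3 and 9.01 in the vehicle tumors. The ADU-S100 tumors had 117, 23.6 and 24.3 and the olaparib tumors 48.7, 73.4 and 34.2, so that every treated tumor exceeded every vehicle tumor, as 18.4%, 13.9% and 3.77% of all genes did in the combination, ADU-S100 and olaparib, each taken on its own. The difference from vehicle was 2.41 in the combination, 1.31 for ADU-S100 and 1.58 for olaparib (SE 0.61 each, limma adjusted p = 0.278, 0.809 and 0.577). NKG2D itself binds stress ligands rather than Qa-1. The fewest recovered counts behind Klrk1 and Klrc1 in a tumor were 7 and 6.

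Cd1d1 varied most among the members, 27.1-fold between its highest and lowest tumor, and the variation lay within the treatment groups. Olaparib tumors 1510, 1517 and 1521 had 95.5, 1278 and 47.1 normalized counts, which include both the highest and the lowest of all. Vehicle tumors 1269, 1529 and 1536 had 239, 464 and 154. ADU-S100 tumors 1506, 1512 and 1513 had 436, 88.4 and 174. The combination tumors 1251, 1270 and 1539 had 133, 191 and 142, the narrowest of the groups with 155 ± 31.5 (SD, n = 3). Tumor 1517, the one with the fewest counts, stood 2.76-fold above the next, from 122 recovered counts with an interval of 1062 to 1527 normalized counts. Without it the range over the tumors was 9.84-fold, and the mean of the olaparib group was 71.3 in place of 474.

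The fitted difference of the combination was -0.74 from vehicle, -0.30 from ADU-S100 and -0.23 from olaparib (SE 1.03 each), and all group ranges overlapped. All 3 comparisons depended on single tumors, and those with the drugs alone also on the model. With the log2 factor as a covariate the difference turned to 1.22 from ADU-S100 and 1.51 from olaparib, and edgeR with the authors' factors gave -1.57 from olaparib. The combination minus vehicle difference was -0.32 without tumor 1529 and -1.12 without tumor 1536. The combination minus ADU-S100 difference turned to 0.30 without tumor 1506 and was -0.84 without tumor 1512. The combination minus olaparib difference was 1.18 without tumor 1517 and -1.19 without tumor 1521, and the olaparib minus vehicle difference went from -0.51 to -1.92 and to 0.44. Relative to H2-K1 and H2-D1, all 3 combination tumors (-8.10 to -7.90) lay below all vehicle tumors (-7.47 to -5.07) and all ADU-S100 tumors (-7.19 to -5.73), as 5.68% and 75.8% of genes did on that scale, and olaparib tumor 1521 was lower still at -8.72. The classical genes were highest in the combination, so that a gene that stayed level would move in the same way.

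**Figure D3:**
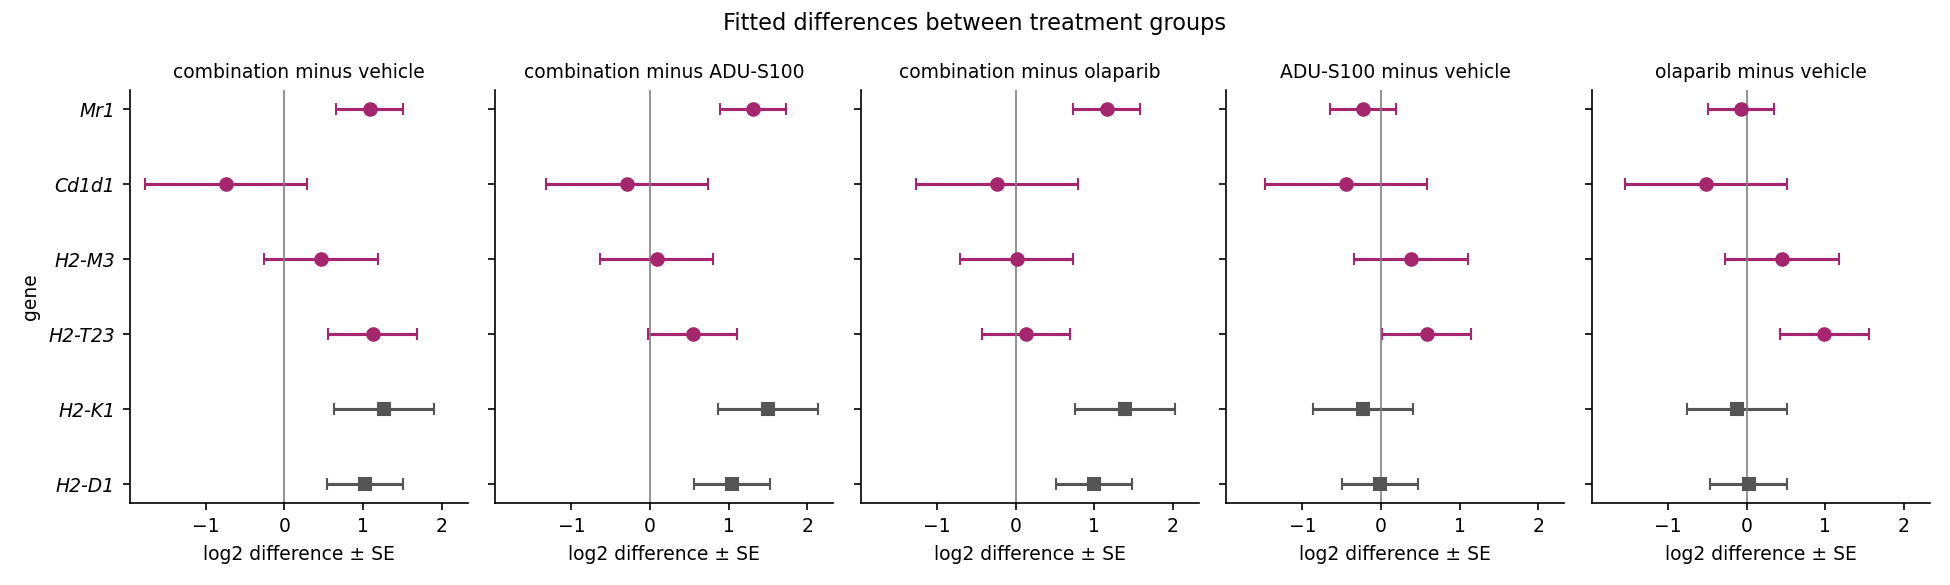
Fitted log2 differences of the 4 members (circles) and of H2-K1 and H2-D1 (squares) in 5 comparisons, with whiskers of 1 SE from the fit over 12 tumors. Mr1, H2-K1 and H2-D1 lie at 0.999 to 1.50 in the 3 combination comparisons, while Cd1d1 and H2-M3 lie within 1 SE of 0 in all 5.

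Cd1d2 lies beside Cd1d1 and is a near copy of it, so that their probes may share signal and the pair is uncertain in that respect. Cd1d2 was low, with 17.0, 19.8 and 13.9 normalized counts in the combination tumors, 21.8, 52.0 and 25.6 in vehicle, 85.5, 41.3 and 27.1 in ADU-S100 and 23.4, 115 and 14.7 in olaparib, from no more than 37 recovered counts. Its combination tumors lay below all vehicle and all ADU-S100 tumors, as 1.6% and 20.9% of genes did, with a difference from vehicle of -0.84 (SE 0.70, limma adjusted p = 0.946).

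The same 3 tumors, 1517, 1529 and 1506, held the 3 highest values of Cd1d1, H2-M3 and Cd1d2, and of the endothelial and the macrophage markers. The macrophage markers (6 of 7 listed, none at 0) summed to 4412, 5028 and 4640 in these tumors and to at most 3244 in the others. The 4 endothelial markers (Pecam1, Cdh5, Kdr and Tek) were all measured and none was at 0. They summed to 16893 normalized counts in olaparib tumor 1517, 5881 in vehicle tumor 1529 and 5116 in ADU-S100 tumor 1506, and to between 351 and 1489 in the other 9. The ranges were 868 to 5881 in vehicle, 1234 to 5116 in ADU-S100, 351 to 16893 in olaparib and 1029 to 1331 in the combination. The genes most like Cd1d1 were Vwf, the von Willebrand factor of endothelium and platelets (r = 0.94, rho = 0.86), C1ra, a protease of the complement pathway (r = 0.93, rho = 0.86), and Tlr5, the flagellin receptor (r = 0.92, rho = 0.71). Without tumors 1517 and 1521, r was 0.92, 0.85 and 0.77. Cd1d1 also went with the value of 1 count (r = 0.70, rho = 0.40). The r of Cd1d1 was 0.88 with the endothelial sum and 0.63 with the macrophage sum (0.77 and 0.55 without tumor 1517). It was 0.69 with the B cell sum and 0.63 with the NK cell sum (0.43 and 0.41 without that tumor). The part of these cell types in the Cd1d1 values was not tested, and that of depth was not tested beyond the fit with the log2 factor as a covariate given above.

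**Figure D4:**
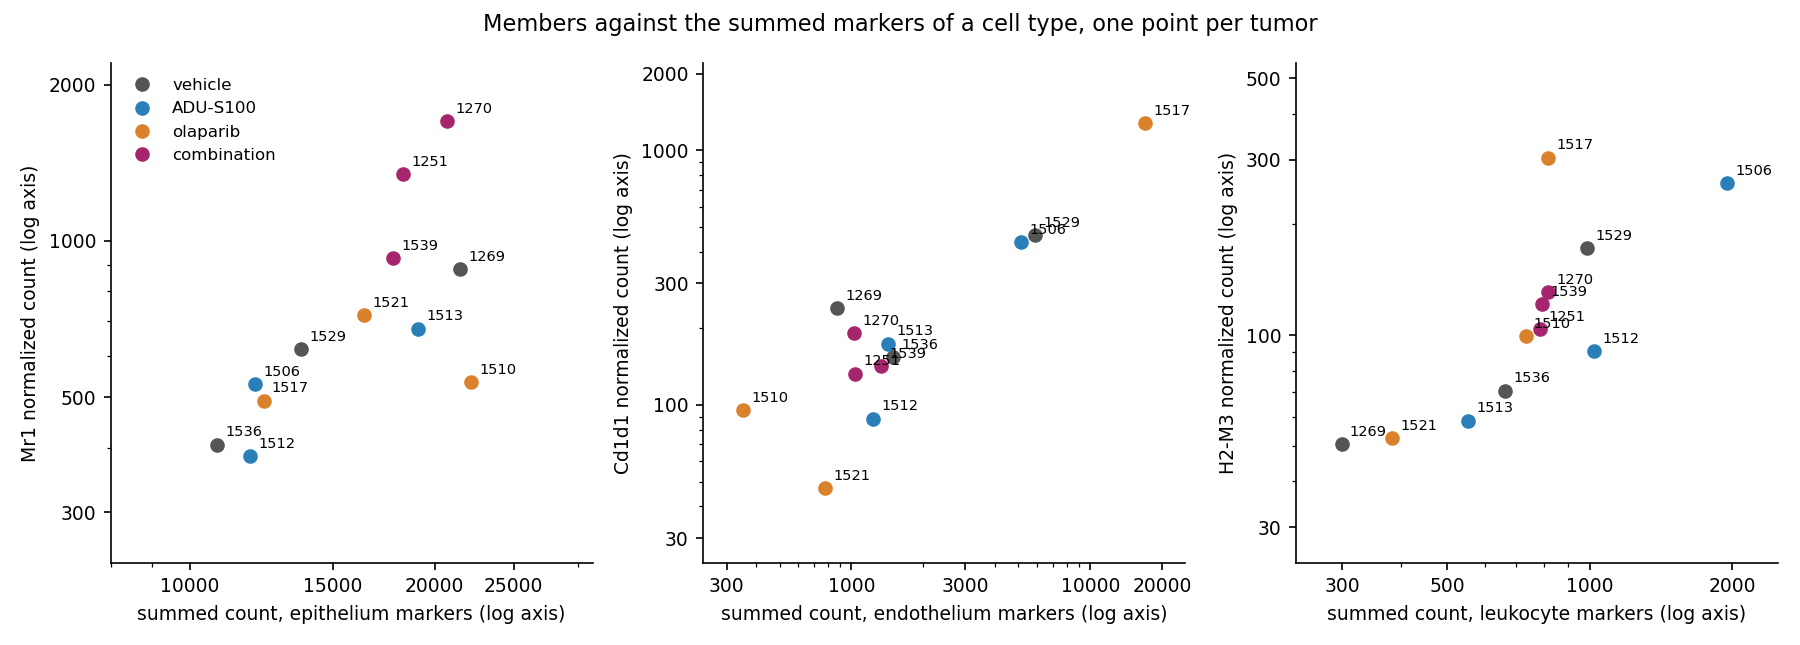
Normalized counts of Mr1, Cd1d1 and H2-M3 against the summed normalized counts of epithelial, endothelial and leukocyte markers (both axes log), 1 point per tumor with its number, colored by treatment group. Tumors 1517, 1529 and 1506 lie apart at the upper right for Cd1d1 and endothelium, with endothelial sums of 5116 to 16893.

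H2-M3 came closest to the limit of counting among the members, and no group stood apart. The vehicle tumors 1269, 1529 and 1536 had 50.5, 172 and 70.7 normalized counts. The ADU-S100 tumors 1506, 1512 and 1513 had 259, 90.4 and 58.5. The olaparib tumors 1510, 1517 and 1521 had 99.4, 304 and 52.4, the second from 29 recovered counts with an interval of 204 to 436. The combination tumors 1251, 1270 and 1539 had 104, 131 and 121, again the narrowest group at 119 ± 13.9 against 97.9 ± 65.4 in vehicle (SD, n = 3). The fitted difference of the combination was 0.47 from vehicle, 0.09 from ADU-S100 and 0.02 from olaparib (SE 0.72 each). Each depended on single tumors, and the last 2 also on the model, as they were 1.05 and 1.13 with the log2 factor as a covariate. The vehicle difference was 0.10 without tumor 1269, 0.97 without tumor 1529 and 0.06 with edgeR and TMM. The ADU-S100 difference was 0.69 without tumor 1506 and -0.37 without tumor 1513. The olaparib difference was 0.70 without tumor 1517 and -0.55 without tumor 1521. Over the tumors its r was -0.18 with H2-K1 and 0.15 with H2-D1 (0.06 and 0.25 without tumor 1517), and that of Mr1 was 0.86 and 0.83 (n = 12).

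The genes closest to H2-M3 over the tumors were Cd37, a tetraspanin of B cells and other leukocytes (r = 0.95, rho = 0.90), Batf, a transcription factor of lymphocytes and dendritic cells (r = 0.94, rho = 0.84), and Ccl21a, a chemokine of lymphoid stroma (r = 0.93, rho = 0.93). Without tumors 1506 and 1517, r was 0.87, 0.85 and 0.84. These genes themselves went with the value of 1 count (r = 0.84, 0.76 and 0.79). With every tumor scaled to the same median, the complement gene C4b came first (r = 0.84), before Ccl21a (0.82) and Cd37 (0.78). The r with the summed leukocyte markers Ptprc and Itgb2, 2 of 3 listed, was 0.79 (rho = 0.83), and 0.91 without tumor 1517. It was 0.77 with the endothelial sum (rho = 0.61), and 0.64 without that tumor. The B cell sum had the highest r (0.89, rho = 0.85, and 0.84 without that tumor), from as few as 1 recovered count for a marker. The NK, dendritic, T cell and macrophage sums had 0.81, 0.80, 0.79 and 0.78, and the stromal and epithelial sums 0.21 and -0.41. The leukocyte sums were 299 to 987 in vehicle, 555 to 1951 in ADU-S100, 382 to 817 in olaparib and 787 to 817 in the combination, none at 0. H2-M3 and Cd1d1 went together (r = 0.75, rho = 0.57), less so without tumors 1517 and 1521 (r = 0.51), and H2-M3 also went with the value of 1 count (r = 0.75, rho = 0.71). Whether leukocytes or endothelium had a part in these values was not tested, and the part of depth was not tested beyond the covariate fit given above. Mr1 and H2-T23 had an r of 0.48 (rho = 0.38), and Mr1 had an r of -0.12 with Cd1d1 and -0.10 with H2-M3. With every tumor scaled to the same median these were 0.65, -0.28 and -0.41, and the r of H2-M3 was 0.48 with Cd1d1 and 0.54 with the value of 1 count.

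The pathway around the members was described by 8 lists, of which 63 genes were in the table and 60 passed the filter. Limma called 0 of the 60 in any comparison. At an unadjusted p below 0.05, 12 were higher and 0 lower in the combination than in vehicle, 9 and 0 when compared with ADU-S100, and 6 and 2 when compared with olaparib. For ADU-S100 against vehicle these counts were 2 and 1, and for olaparib against vehicle 6 and 0. Over all 689 genes tested, the counts were 52 and 1 against vehicle, 31 and 32 against ADU-S100, and 31 and 19 against olaparib for the combination. They were 32 and 1 for ADU-S100 against vehicle and 40 and 10 for olaparib against vehicle. In the combination minus vehicle comparison, H2-K1 and H2-D1 had a difference above 0, and H2-Q10, a nonclassical chain of the Q region listed with them, had -0.07 (SE 0.77, limma adjusted p = 0.989), so that the list's median was 1.02. All 4 receptor genes had a difference from vehicle above 0 in the combination (median 0.91), with ADU-S100 alone (median 1.43) and with olaparib alone (median 1.19), and 1 of the 4 was above 0 in the combination compared with ADU-S100 (median -0.54). Over all genes these medians were 0.21, 0.44, 0.45 and -0.22. The 4 include Klrk1, whose product does not bind Qa-1, and were read from as few as 3 recovered counts.

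Among the genes that supply and load peptides onto class I, all 6 tested had a higher mean in the combination than in vehicle, with a median log2 difference of 0.89 against 0.21 over all genes, and Psmb8, a subunit of the immunoproteasome, had 0.89 (SE 0.44, limma adjusted p = 0.652). Of the 17 tested genes of class I transcription and interferon response, 16 had a difference above 0 from vehicle, with a median of 0.40. Both drugs alone had medians near that of the panel in this list, 0.35 for ADU-S100 and 0.51 for olaparib against 0.44 and 0.45. Nlrc5, the class I transactivator, was at 995 ± 322 normalized counts in the combination, 600 ± 396 in vehicle, 727 ± 375 in ADU-S100 and 1027 ± 1060 in olaparib (SD, n = 3). It is named beside the rule, for its role.

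The class II list had the highest median of the 8 lists, with 8 of 8 genes above 0 against vehicle and a median of 1.17. H2-Aa, the alpha chain of I-A, had a difference of 1.78 from vehicle, 2.70 from ADU-S100 and 1.86 from olaparib (limma adjusted p = 0.278, 0.0624 and 0.463), and class II includes genes that the study picked on these tumors. Among genes of the T cells that recognise MR1 or CD1d, 13 of 15 tested were above 0 against vehicle with a median of 0.74 in the combination (0.21 over all genes). Below 0 were Klrb1 (-0.75, SE 0.72, limma adjusted p = 0.949) and Klrb1c (-0.35, SE 0.88, limma adjusted p = 0.989). Their combination tumors lay below all ADU-S100 tumors, as 20.9% of genes did. The list also holds Cd3d, Cd3e, Cd3g, Cd4 and Cd8a, which are among the summed T cell markers. For the drugs alone against vehicle, 13 of 15 were above 0 with a median of 0.74 for ADU-S100, and 15 of 15 with a median of 1.005 for olaparib, where the medians over all genes tested were 0.44 and 0.45. The smallest p in that list belonged to a gene that all T cells express, Cd3g of the T cell receptor complex, which had 1.64 (SE 0.49, limma adjusted p = 0.278). Il17a and Ifng, cytokines of these cells, did not pass the filter. They had mean normalized counts of 7.56 and 8.55 in vehicle, 18.7 and 20.2 in ADU-S100, 28.6 and 20.2 in olaparib and 8.18 and 9.27 in the combination, from as few as 6 and 4 recovered counts. The olaparib means had an SD of 30.3 and 19.9. Their highest values, 62.9 and 41.9, were in olaparib tumor 1517, where the value of 1 count was 10.5, so these means do not describe a change. In the list of lipid and lysosomal genes, 3 of 6 were above 0 against vehicle with a median of 0.09, and Ctss, a lysosomal protease, had 1.03 (SE 0.55, limma adjusted p = 0.686).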

How the data were processed

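RNA from 12 tumors, 3 per treatment group, was measured on the nCounter PanCancer immune panel from 100 ng of RNA. The authors made the deposited values, normalized counts that form a linear signal, with nSolver by correcting for background and scaling to the positive controls and to 8 housekeeping genes (their geometric mean), and they discarded raw counts below the negative controls. The scaling fixes what a difference between tumors means, and the control and housekeeping probes were not used here. Groups came from the sample labels, and nothing in the sources used here says whether the 3 tumors of a group came from separate donor tumors, so the errors measure the spread between these samples.

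Each tumor's counts before scaling were recovered as whole multiples of one step, with at least 99.87% of values whole (tolerance of 0.01). A value of exactly 1, the floor, was taken as 0 counts. Poisson intervals were exact at 95%. The log2(normalized count + 1) values of genes with at least 20 in at least 3 tumors were fitted with limma 3.58.1 in R 4.3.3 (one mean per group, Benjamini-Hochberg adjustment, threshold 0.05). A fold change on this scale understates the change of low genes. Limma and edgeR 4.0.16 (quasi-likelihood, on the recovered counts) were tested on simulated data.

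The members and all gene lists were chosen with earlier results of these data known. Beside the members, the text names the gene with the smallest p of each list in the combination minus vehicle comparison, Cd1d2, Klrd1 and Klrc1, and the 3 genes with the highest Pearson r to a member. The gene of one list is not reported here. H2-K1, H2-Q10, Nlrc5, Il17a, Ifng, Klrb1, Klrb1c, C4b and H2-DMb2 were named after their values were seen. B2m was planned as a reference and was not analysed here. Alternatives were a pseudocount of 10, no filter and a filter at 50, median, quantile and TMM scaling, an intensity trend, the unmoderated model, the methods' one-way comparison, fits on the groups compared, the factor as a covariate, the tumor number series as a block, a further background and leaving out each tumor. The comparison with H2-K1 and H2-D1 was added after seeing the data.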

Additional observations from a re-analysis of the deposited data

Results flagged for a closer look

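H2-DMb2, a chain of the class II peptide editor H2-DM and one of the genes listed around the members, was flagged for opposite effects of ADU-S100 with and without olaparib. The rule looked among the members and the 60 listed genes for such effects without overlap between tumors, so the separation below is how the gene was picked. It was at 106, 126 and 97.0 normalized counts in the vehicle tumors, 65.5, 37.3 and 79.9 in the ADU-S100 tumors, 54.6, 83.8 and 78.4 in the olaparib tumors, and 190, 261 and 203 in the combination tumors. All ADU-S100 tumors thus lay below all vehicle tumors, and all combination tumors above all olaparib tumors. The difference between these effects was 2.4895 on the log2 scale (SE 0.55), with a limma adjusted p of 0.346 over 689 genes.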

How the results depend on the processing

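The combination minus vehicle difference of Mr1 stayed between 0.65 and 1.36 under the scalings and with each tumor left out, and those from ADU-S100 and olaparib at 0.956 or above when a tumor was left out. With the tumor number series as a block they were 0.802 and 0.6516. Relative to H2-K1 and H2-D1, the Mr1 differences were -0.0607, 0.0393 and -0.0362 from vehicle, ADU-S100 and olaparib, since those genes differed by about as much. On that scale the H2-M3 differences were -0.677, -1.1838 and -1.1787 and those of H2-T23 -0.0201, -0.7245 and -1.062. With the log2 factor as a covariate, Cd1d1 turned to 1.2157 and 1.5149 from ADU-S100 and olaparib, and H2-M3 went to 1.0502 and 1.1279 (the cause was not tested).

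The number of genes called was 0 with edgeR, TMM and the tumor number block. In combination minus vehicle it was 1 by the methods' one-way comparison, 4 with the covariate and 2 in the fit on those groups alone. In combination minus ADU-S100 it was 1 with a pseudocount of 10, with a filter of 50, with median scaling and with the intensity trend, and 2 by the methods' comparison, which also called 2 against olaparib. Of the listed genes, 1 was called in the first comparison by the methods' comparison, 1 in each of those 4 settings and 2 by the methods' comparison in the second, and 2 in the third. Leaving out a tumor gave 0 to 1 genes against ADU-S100 (1 without tumor 1506, a listed gene), 0 to 54 against olaparib, 0 to 55 for olaparib minus vehicle and 0 to 86 for the interaction, all the high values without olaparib tumor 1521, and 0 to 6, 0 to 5 and 0 to 11 of the listed genes. No paired analysis was possible because the groups share no replicate numbers. The low counts of tumor 1517 and 3 tumors per group limit the precision throughout.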
